A study of Mus musculus with 24 samples.

Results

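The lung's response to ABT-263 was taken here as a single drug effect shared by both oxygen levels. It was estimated from all 24 libraries of the series, 12 from mice given ABT-263 and 12 from mice given vehicle, in a model with 1 term for oxygen and 1 term for the drug. No library was left out and no measured value was used to choose them. The 24 libraries came from whole lung of young male C57BL6/j mice and fell into 4 groups of 6: hypoxia with ABT-263, hypoxia with vehicle, normoxia with ABT-263, and normoxia with vehicle, which the submitters name as the control. Treatment lasted 2 days in every group, and the drug was given at 50 mg/kg/day. The sources used here do not give the oxygen level, the composition of the vehicle, the route of dosing or the hour at which lungs were taken. The labels number no animals and name no batch. The p-values therefore measure the spread between libraries, which could be partly technical.

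ABT-263, or navitoclax, is a small molecule that occupies the BH3-binding groove of the survival proteins BCL-XL, BCL-W and BCL-2, so that pro-apoptotic BH3-only proteins held there are freed and cells that depend on them die by apoptosis. It is used as a senolytic, because many senescent cells lean on these proteins. Among blood cells, platelets are known to depend on BCL-XL for their life span and mature B cells on BCL-2 for survival, and both are carried by the blood that fills a lung sample. Lung cells also run a circadian clock, in which the activator pair of Arntl (BMAL1) and Clock drives its own repressors, the Per and Cry genes and the nuclear receptors Nr1d1 and Nr1d2 (REV-ERB alpha and beta), as well as output factors such as Dbp.

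The libraries held 12643500 to 17295200 expected counts each. Genes of alveolar type 2 cells, which make surfactant, summed to between 26700 and 46600 counts per 1000000 (CPM) and were thus high in every library. Levels below are CPM scaled by the TMM method. Correlations of log2 CPM between libraries of a group ran from 0.966 to 0.989. Total counts, the number of genes detected, and the shares of haemoglobin and of mitochondrially encoded transcripts were compared between ABT-263 and vehicle within oxygen level, and none passed (exact two-sided permutation, p adjusted over the 4 measures 0.42 to 0.501). The haemoglobin share (mean ± SD, n = 6) was 1.74% ± 0.589 in hypoxia with ABT-263, against 1.47% ± 0.36 in its vehicle group, and 0.6% ± 0.214 in normoxia with ABT-263, against 0.385% ± 0.08 in its vehicle group. The mean difference of 0.243 percentage points had an unadjusted exact permutation p of 0.105. Marker genes of adipocytes, a tissue that lies outside the lung, summed to anything from 19.4 to 361 CPM in single libraries, and those of cardiac muscle from 158 to 2010 CPM.

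Few genes passed. In lungs given ABT-263, 7 of 24 B-cell markers and the clock activator Arntl were lower, and 4 of 35 tested platelet genes and the clock genes Nr1d1, Nr1d2 and Dbp were higher. By the edgeR quasi-likelihood F test with Benjamini-Hochberg adjustment at a threshold of 0.05, 26 of the 16935 genes tested were called for the drug term, which is 0.154% of them. Of these, 11 were higher (0.065% of genes tested) and 15 lower (0.0886%). Their changes were modest, between 1.25-fold and 2.04-fold, and only Dbp reached 2-fold. Before adjustment, 953 genes (5.63%) had a p under 0.05, against 847 to be expected by chance on average, and they divided almost evenly into 471 higher and 482 lower. The median log2 fold change of all genes tested was 0.0071, with 9014 estimates positive and 7921 negative. The estimates at each oxygen level had the same sign for all 26, which choosing genes on the pooled effect favours. Of the 26, 9 had a mean under 10 CPM, where counting error weighs more. In the annotation 2 of the 26, Itga2b and Ltb, overlap a gene on the same strand, and 10 overlap one on the other strand: Arntl, Nr1d1, Dbp, Cxcr5, Bank1, Hvcn1, H2-Oa, Tnc, Mpig6b and Tex11. The sources used here do not give the strand setting of the counting, so reads of such pairs may have been shared.

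**Figure D1:**
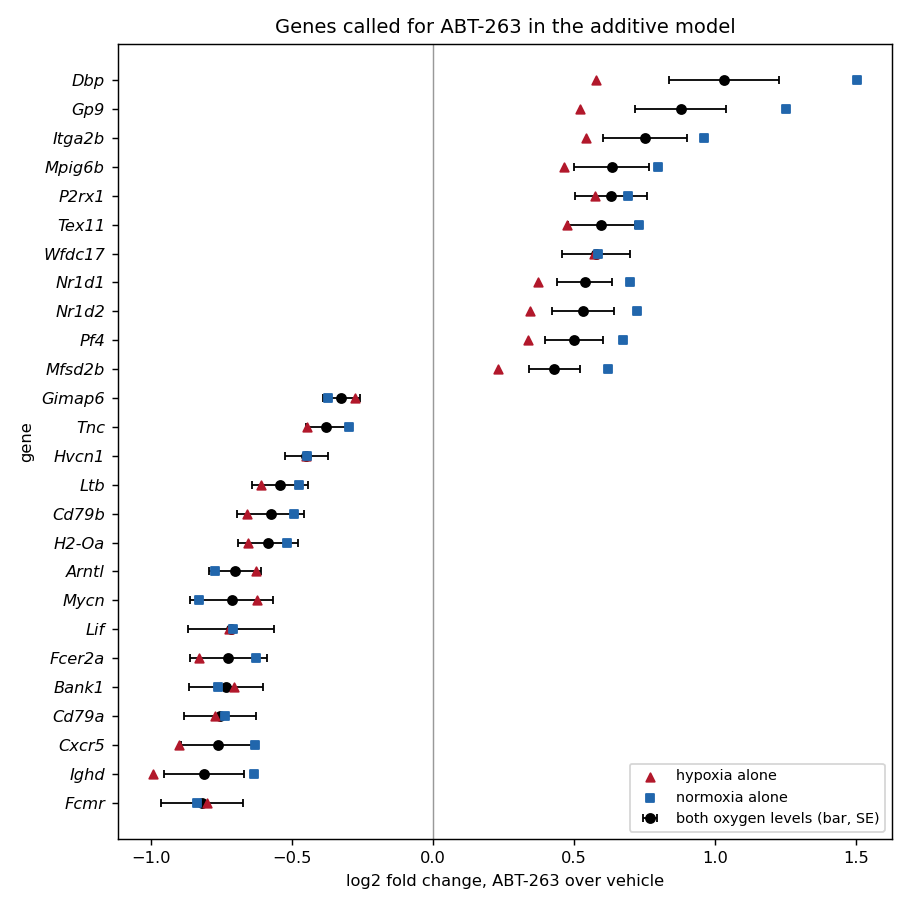
Log2 fold change of ABT-263 over vehicle (x axis) for each of the 26 genes called in the additive model (y axis, ordered by size). Black circles with bars show the estimate over both oxygen levels and its SE, red triangles the estimate in hypoxia and blue squares that in normoxia. The 11 higher genes lie between 0.43 and 1.03 and the 15 lower genes between -0.82 and -0.33, and among the higher ones the normoxia estimate is the larger in each case.

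The number of calls moved with single libraries. Leaving out each library in turn gave 11 to 37 calls. Among normoxia vehicle libraries, the count was 11 when replicate 1 was left out, 14 for replicate 3 or 4, 16 for replicate 5 and 17 for replicate 2. Among normoxia ABT-263 libraries it was 14 for replicate 3, 15 for replicate 1 and 16 for replicate 4, and in hypoxia it was 15 for vehicle replicate 3. In all 24 of those runs 11 genes kept their call: Arntl, Hvcn1, Cd79a, Cxcr5, Ighd, Fcmr, Bank1, Nr1d1, H2-Oa, Ltb and Gp9. Without normoxia vehicle replicate 1 the other 15 all lost theirs, and normoxia ABT-263 replicate 2 was the only library whose removal cost no call. When the library of each group that correlated least with the rest of its group was left out, a choice made after seeing the data (in hypoxia ABT-263 replicate 1 and vehicle replicate 5, in normoxia ABT-263 replicate 5 and vehicle replicate 2), 4 genes were called, among them Arntl, Nr1d2 and Ighd.

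The clearest group among the genes that fell was that of B cells. Of the 24 B-cell markers, all of which were measured, 7 fell, 0 rose, and all 24 had a negative log2 fold change, with a median of -0.58 beside 0.0071 over all genes tested. Over all 16935 genes tested, 0.0886% fell and 7921 had negative estimates. This list, like the platelet and clock lists below, was chosen with earlier results of these data known. Its counts are therefore no independent support. The 7 were Cd79a and Cd79b, the signalling chains of the B-cell receptor, Ighd, the IgD heavy chain of mature naive B cells, Cxcr5, the receptor for the follicle chemokine CXCL13, Fcmr, the Fc receptor for IgM, Fcer2a, the low-affinity IgE receptor CD23, and Bank1, a scaffold in B-cell receptor signalling. A further 13 of the 24 were lower at an unadjusted p under 0.05 without passing, so that 20 had one in all, where 2.85% of all genes tested had one in that direction. In a bulk sample fewer B cells and less of these transcripts per B cell cannot be told apart.

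Cd79a (chr7:24897381-24902197, plus strand) ran from 8.78 to 21.1 CPM with a median of 16.0 in hypoxia with ABT-263, and from 20.8 to 40.1 CPM with a median of 24.8 in hypoxia with vehicle. In normoxia it ran from 17.2 to 22.5 CPM (median 20.3) with ABT-263 and from 24 to 42.0 CPM (median 34.7) with vehicle. The normoxia groups did not overlap, and in hypoxia the groups touched in a single pair of values. Its log2 fold change was -0.76 (SE 0.13, edgeR adjusted p = 0.0138), with -0.77 in hypoxia and -0.74 in normoxia. Ighd (chr12:113406604-113416324, minus strand) lay between 13.8 and 39.0 CPM (median 36.0) in hypoxia with ABT-263 and between 54.1 and 76.1 CPM (median 63.9) in hypoxia with vehicle. Its values in normoxia were 34.8 to 69.1 CPM (median 49.7) with ABT-263 and 52.9 to 99.1 CPM (median 79.9) with vehicle. Every hypoxia library with the drug lay below every one with vehicle, whereas the normoxia groups overlapped. The log2 fold change was -0.81 (SE 0.14, edgeR adjusted p = 0.0143).

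Fcer2a (chr8:3681737-3694175, minus strand) stood at 4.51 to 9.79 CPM (median 8.74) in hypoxia with ABT-263, below its 11.2 to 19.8 CPM (median 14.5) in hypoxia with vehicle. In normoxia it stood at 6.73 to 17.5 CPM (median 12.4) with ABT-263 and 15.1 to 22.9 CPM (median 19.7) with vehicle. The groups were apart in hypoxia and overlapped in normoxia, for a log2 fold change of -0.73 (SE 0.14, edgeR adjusted p = 0.0237), a call lost without normoxia vehicle replicate 1 (adjusted p = 0.0544). Cxcr5 was a weaker transcript, at 3.04 to 6.54 CPM in hypoxia with ABT-263 and 6.53 to 11.2 CPM in hypoxia with vehicle, and at 4.88 to 7.29 CPM in normoxia with ABT-263 and 6.62 to 11.4 CPM in normoxia with vehicle (log2 fold change -0.76, SE 0.13, edgeR adjusted p = 0.0138). Fcmr changed by -0.82 (SE 0.15) and Bank1 by -0.74 (SE 0.13) on the log2 scale, both at an edgeR adjusted p of 0.0143. Cd79b, at -0.58 (SE 0.12, edgeR adjusted p = 0.0379), was the least secure of the 7, since it kept its call in 8 of the 24 runs that left out a library.

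Summed over the 24 markers, B-cell transcripts came to at most 469 CPM (median 390) in hypoxia with ABT-263 and up to 742 CPM (median 539) in hypoxia with vehicle. In normoxia the sums were 476 to 633 CPM with ABT-263 and 564 to 908 CPM (median 712) with vehicle. The hypoxia sums did not overlap and the normoxia sums did. The list's median log2 fold change was -0.73 in hypoxia and -0.45 in normoxia. The 7 calls became 5 to 10 when a library was left out, 14 by DESeq2 and 1, that of Ighd, without the 4 libraries that correlated least with their groups, when all 24 estimates were still negative and the median was -0.42. Among the markers that did not pass were Ms4a1, which encodes CD20 (-0.48, edgeR adjusted p = 0.493), and the lineage factor Pax5 (-0.59, adjusted p = 0.195). Ebf1, another B-lineage factor that is also expressed outside B cells, stood at -0.13 and Vpreb3 at -0.03.

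**Figure D2:**
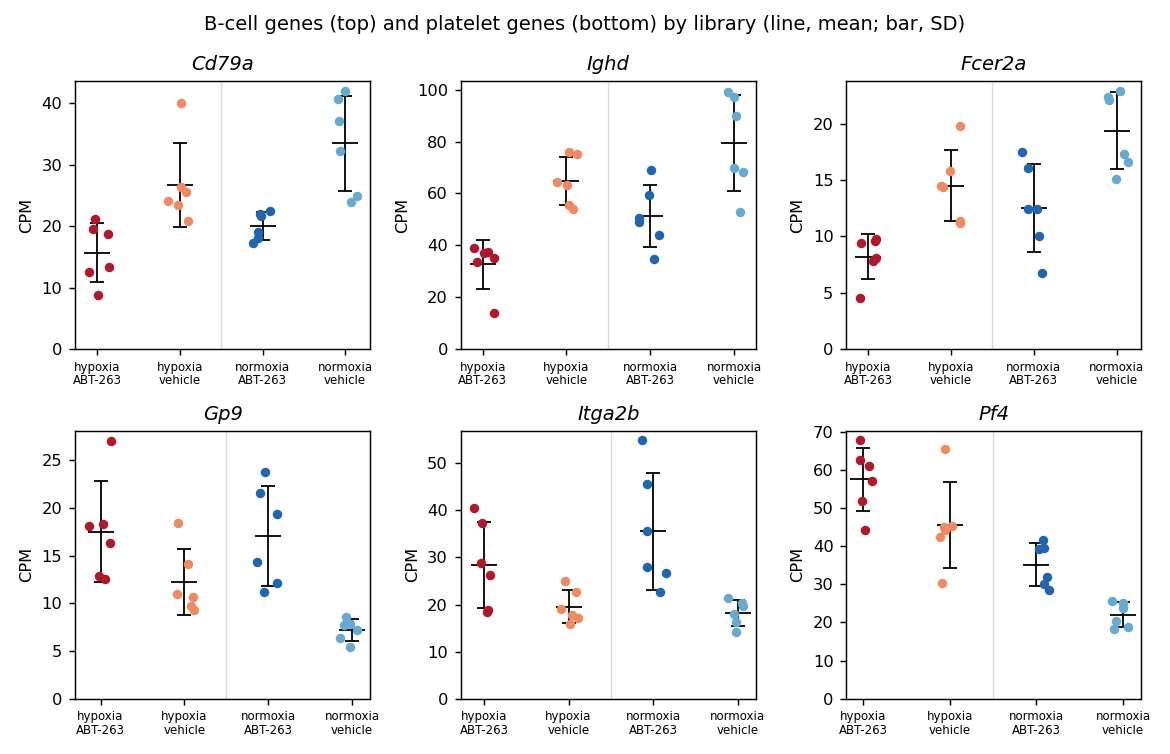
CPM of 3 B-cell genes (top row) and 3 platelet genes (bottom row) in each library (points), by group (x axis), with the mean (horizontal line) and SD (bar) of the 6 libraries. Ighd and Fcer2a lie lower with ABT-263 in all 6 hypoxia libraries and Cd79a in all 6 normoxia libraries, whereas Gp9, Itga2b and Pf4 lie higher with ABT-263 in all 6 normoxia libraries.

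The immunoglobulin genes that B cells transcribe had negative estimates as well. Of the 13 constant region genes, 7 had enough counts to be tested and 1, Ighd, fell, and all 7 estimates were negative with a median of -0.62. Among all 16935 genes tested, 0.0886% fell, 7921 had negative estimates and 2.85% were lower at an unadjusted p under 0.05. Igkc, the kappa light chain, was just outside the threshold at -0.62 (edgeR adjusted p = 0.0512), and Ighm, the IgM heavy chain, stood at -0.49 (adjusted p = 0.0712). Of the 218 variable gene segments, 16 passed the filter on low counts. All 16 were negative, with a median of -0.77, but none was called and 11 had an unadjusted p under 0.05. Their summed level was low, at most 28.4 CPM in any library, so single segments carry much counting error, and reads of near-identical segments may have been split between them. Igha, the IgA heavy chain of mucosal plasma cells, stood at -0.32 in hypoxia and -1.31 in normoxia and was not called (adjusted p = 0.658).

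Among other lymphocyte markers no gene passed. None of 17 tested T-cell markers was called, 16 had negative estimates with a median of -0.18, and 3 had an unadjusted p under 0.05, among them Ccr7, the homing receptor of naive T cells (-0.40, edgeR adjusted p = 0.291). Of all genes tested, 2.85% were lower with such a p. Summed T-cell transcripts ran from 57.7 to 113 CPM in hypoxia with ABT-263 and 89.3 to 129 CPM in hypoxia with vehicle, and from 115 to 240 CPM in normoxia with ABT-263 and 139 to 186 CPM in normoxia with vehicle. Plasma-cell markers (7 tested, median -0.15) and natural killer cell markers (11 tested, median -0.18) had no call. In hypoxia 4 of the 11 killer cell markers were lower with ABT-263 without overlap between the groups, as were 0.106% of all genes tested, and the list's median was -0.69 in hypoxia and 0.40 in normoxia. The summed killer cell transcripts of 1 normoxia ABT-263 library reached 636 CPM, where the median of its group was 73.8 CPM. These lists were not tested against the B-cell list.

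A further 4 genes expressed in lymphocytes fell, none of which was in a list of cell markers. Hvcn1, a voltage-gated proton channel of B cells and phagocytes (chr5:122206804-122242297, plus strand), had 11.8 to 16.2 CPM (median 13.4) in hypoxia with ABT-263 against 17.4 to 20.7 CPM (median 18.8) in hypoxia with vehicle. In normoxia it had 16.9 to 20.3 CPM (median 18.2) with ABT-263 and 19.6 to 32.7 CPM (median 24.7) with vehicle. The hypoxia groups were apart and the log2 fold change was equal at both oxygen levels, at -0.45 (SE 0.08, edgeR adjusted p = 0.0138). H2-Oa, a subunit of the H2-O molecule that tunes peptide loading on class II MHC in B cells, fell by 0.59 on the log2 scale (SE 0.11, edgeR adjusted p = 0.0153). Ltb, the lymphotoxin beta chain needed for lymphoid tissue, fell by 0.54 (SE 0.10, adjusted p = 0.0153), with 17.7 to 24.2 CPM in normoxia with ABT-263 below its 25.0 to 30.4 CPM in normoxia with vehicle. Gimap6, a GTPase of the immunity-associated family, fell by 0.33 (SE 0.07, adjusted p = 0.0379). Over both oxygen levels it ran from 98.6 to 131 CPM with ABT-263 and from 109 to 178 CPM with vehicle. Which cells its transcripts came from was not tested.

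The relatives of H2-Oa, Gimap6 and Ltb were then read from 3 short lists chosen after seeing the data. Each list includes the called gene it was chosen for, so that call was fixed in advance. Among all 16935 genes tested, 0.0886% fell and 7921 had negative estimates. In class II MHC presentation, H2-Oa was the 1 call among 10 genes, all of which had negative estimates with a median of -0.14. H2-Ob, its partner chain, stood at -0.53 (edgeR adjusted p = 0.171) and H2-DMb2 at -0.46 (adjusted p = 0.128), whereas the class II chains of all antigen-presenting cells, H2-Aa (-0.13) and H2-Ab1 (-0.11), and the transactivator Ciita (-0.03) were closer to 0. All 8 GIMAP genes were negative, with a median of -0.20 and only Gimap6 called. Among 6 lymphoid cytokines tested, Ltb was called, Lta stood at -0.59 (adjusted p = 0.655) and the follicle chemokine Cxcl13 at 0.60 (adjusted p = 0.891).

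Several platelet genes rose. Of the 36 genes in 3 lists of platelet and megakaryocyte genes, 35 were tested, 4 rose, 0 fell and 29 had positive estimates, with a median log2 fold change of 0.39. Over all 16935 genes tested, 0.065% rose, 9014 had positive estimates and the median was 0.0071. The 4 were Gp9, glycoprotein IX of the complex that binds von Willebrand factor, Itga2b, the alpha chain of the fibrinogen receptor, Pf4, the chemokine of the alpha granule, and Mfsd2b, the exporter of sphingosine-1-phosphate in platelets and red cells. Outside the lists, P2rx1, an ATP-gated channel of platelets and smooth muscle, and Mpig6b, an inhibitory receptor of megakaryocytes and platelets, rose as well. Platelets carry RNA from megakaryocytes, which also reside in mouse lung, and these data do not separate the sources.

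Gp9 (chr6:87778072-87779768, plus strand) had 12.5 to 27.0 CPM (median 17.2) in hypoxia with ABT-263 and 9.34 to 18.4 CPM (median 10.8) in hypoxia with vehicle. In normoxia it had 11.2 to 23.8 CPM (median 16.8) with ABT-263 and 5.36 to 8.53 CPM (median 7.45) with vehicle. The groups overlapped in hypoxia and were apart in normoxia. Its log2 fold change was 0.88 over both levels (SE 0.16, edgeR adjusted p = 0.0166), made of 0.52 in hypoxia and 1.25 in normoxia. Itga2b (chr11:102453297-102470122, minus strand) had 18.4 to 40.5 CPM (median 27.6) in hypoxia with ABT-263 and 15.8 to 24.9 CPM (median 18.3) in hypoxia with vehicle. Its normoxia values were 22.7 to 54.9 CPM (median 31.8) with ABT-263 and 14.1 to 21.4 CPM (median 18.8) with vehicle. Again only the normoxia groups were apart, and the log2 fold change was 0.75 (SE 0.15, edgeR adjusted p = 0.0355).

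Pf4 (chr5:90772435-90773383, plus strand) was the most abundant of the 4, at 44.4 to 67.9 CPM (median 59.2) in hypoxia with ABT-263 and 30.4 to 65.7 CPM (median 44.8) in hypoxia with vehicle. In normoxia it lay between 28.6 and 41.6 CPM (median 35.6) with ABT-263 and between 18.2 and 25.7 CPM (median 22.2) with vehicle. The log2 fold change was 0.50 (SE 0.10, edgeR adjusted p = 0.0379), against 0.88 for hypoxia over normoxia in the same model. Mfsd2b rose by 0.43 (SE 0.09, adjusted p = 0.0395), P2rx1 by 0.63 (SE 0.13, adjusted p = 0.0379) and Mpig6b by 0.63 (SE 0.13, adjusted p = 0.0462). Of these, Pf4 and Mpig6b each kept their call in only 4 of the 24 runs that left out a library, Mfsd2b in 7 and P2rx1 in 8, whereas Itga2b kept it in 14 and Gp9 in all 24.

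Within the platelet lists the surface receptors had the highest median. Of 15 adhesion and activation receptors, 2 rose, 14 had positive estimates and 13 had an unadjusted p under 0.05, with a median of 0.56. The share of all genes with such a p that were higher was 2.78%. Gp1bb, which belongs to the same complex as Gp9, had the largest estimate of the list at 1.06 (SE 0.24) but missed the threshold (edgeR adjusted p = 0.0712), and it overlaps 2 gene models on its own strand. The collagen receptor Gp6 stood at 0.56 (adjusted p = 0.192), Gp1ba at 0.64 (adjusted p = 0.11) and Treml1 at 0.81 (adjusted p = 0.126). Among 8 granule proteins only Pf4 was called (median 0.22), with the calmodulin-binding protein Nrgn at 0.52 (adjusted p = 0.0712) and the chemokine Ppbp at 0.48 (adjusted p = 0.169). Selp, which endothelium also makes, stood at -0.08. Of 12 cytoskeleton, signalling and transcription genes Mfsd2b was the 1 call (median 0.35). The median over all platelet genes was 0.24 in hypoxia and 0.54 in normoxia.

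The platelet calls depended on single libraries and settings. The 4 calls among listed genes became 1 to 6 with a library left out. In normoxia 1 was left when ABT-263 replicate 3 or vehicle replicate 1, 3, 4, 5 or 6 was taken out, and 2 for ABT-263 replicate 1, 4 or 5 or vehicle replicate 2. In hypoxia 1 was left for ABT-263 replicate 6 or vehicle replicate 2 or 5, and 2 for ABT-263 replicate 3 or vehicle replicate 1, 3 or 6. None remained without the 4 libraries that correlated least with their groups (median 0.33) or without the filter on low counts, and DESeq2 called 12. Red-cell genes are given beside them: 12 of 14 tested erythroid genes had positive estimates, with a median of 0.46, 9 had an unadjusted p under 0.05 and none was called. Of all genes tested, 2.78% were higher with such a p. Alas2, the first enzyme of haem synthesis in red cells, stood at 0.48 (edgeR adjusted p = 0.332). Summed erythroid transcripts ran from 11200 to 30800 CPM in hypoxia with ABT-263 and 9700 to 18600 CPM in hypoxia with vehicle, and from 2710 to 7880 CPM in normoxia with ABT-263 and 2690 to 5010 CPM in normoxia with vehicle. The part that blood content played in the platelet result was not tested.

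The promoters of Gp9 and Pf4 are shown because binding sites for GATA factors, which direct megakaryocyte and red-cell genes, are a known feature of platelet gene promoters. The windows are from RefSeq (GRCm38.p6), from 250 bases before to 50 after the start site, 5′ to 3′ on the gene's strand, with the letters GATAA in capitals wherever they occur on either strand. The Gp9 window is chr6:87777820-87778119, plus strand, and the Pf4 window is chr5:90772185-90772484, plus strand.
Gp9: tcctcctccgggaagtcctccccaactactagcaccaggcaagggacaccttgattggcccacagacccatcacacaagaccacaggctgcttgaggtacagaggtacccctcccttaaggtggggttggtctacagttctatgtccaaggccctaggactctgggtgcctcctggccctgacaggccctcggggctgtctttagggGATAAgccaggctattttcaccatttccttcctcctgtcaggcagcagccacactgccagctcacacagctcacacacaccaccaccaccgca
Pf4: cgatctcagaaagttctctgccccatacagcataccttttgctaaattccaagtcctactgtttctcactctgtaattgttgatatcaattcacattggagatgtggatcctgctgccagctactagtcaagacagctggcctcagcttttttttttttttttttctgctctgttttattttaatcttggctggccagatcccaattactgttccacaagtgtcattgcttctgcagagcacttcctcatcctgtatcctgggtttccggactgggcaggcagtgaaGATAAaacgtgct
The match began 43 bases before the start site in Gp9 and at base 38 in Pf4, counted with the start site as base 1. The same 5 letters were found in 25.3% of 32544 different promoter windows and in 8 of the 21 called genes that had a window, so a match sets no gene apart. Of the 8, Gp9, Pf4, P2rx1 and Mpig6b rose, and Fcmr, Fcer2a, H2-Oa and Gimap6 fell. The windows of the called platelet genes Itga2b and Mfsd2b held no match.

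For the B-cell receptor gene Cd79a, which fell, the RefSeq window is chr7:24897247-24897546, plus strand. It is shown for the letters AGGAAG, a core of ETS factor sites, and the capitals mark where these letters occur on either strand. ETS factors are known to act on this promoter. Whether they act through the marked letters was not examined, and other forms of the ETS core were not searched for.
Cd79a: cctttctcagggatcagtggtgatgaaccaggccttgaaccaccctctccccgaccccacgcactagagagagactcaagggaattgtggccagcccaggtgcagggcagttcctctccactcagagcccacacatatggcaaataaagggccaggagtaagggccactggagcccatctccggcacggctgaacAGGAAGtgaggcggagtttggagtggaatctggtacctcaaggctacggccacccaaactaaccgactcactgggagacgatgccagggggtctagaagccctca
The marked letters began 55 bases before the start site. ETS cores of these letters were present in 35.1% of all windows and in 12 of the 21. The octamer ATTTGCAT and the EBF motif (TCCC, any 2 bases, GGGA) are both known from B-cell genes. Neither had a match to these letters in this window, and sites with other letters were not searched for. Each motif was in 1 of the 21 windows, against 1.75% and 0.913% of all windows. The octamer was in that of Tnc and the EBF motif in that of Gimap6. The windows of the called B-cell markers Fcmr, Bank1 and Fcer2a held neither.

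Among clock genes the activator Arntl fell, and the repressors Nr1d1 and Nr1d2 and the output factor Dbp rose. Of 22 genes in 3 clock lists, all tested, 4 were called, 3 of them higher and 1 lower, against 0.154% of all genes tested, and 16 had an unadjusted p under 0.05, against 5.63% of all genes. Arntl, the partner of CLOCK in the activating complex, had the smallest p of all 16935 genes. Nr1d1 and Nr1d2 repress Arntl, and Dbp is driven by the activating complex. The sources used here do not give the hour at which each lung was taken, so an effect of the drug on the clock and a difference in collection time between groups cannot be told apart.

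Arntl (chr7:113207465-113314126, plus strand) ran from 5.97 to 9.54 CPM (median 7.41) in hypoxia with ABT-263 and from 10.5 to 14 CPM (median 11.4) in hypoxia with vehicle. In normoxia it ran from 11.8 to 20.3 CPM (median 13.8) with ABT-263 and from 19.4 to 29.5 CPM (median 25.5) with vehicle. The hypoxia groups were apart and the normoxia groups overlapped at their edges. The log2 fold change was -0.71 (SE 0.09, edgeR adjusted p = 0.0006), with -0.63 in hypoxia and -0.77 in normoxia. Its unadjusted exact permutation p within oxygen level was 4.69e-06, where 2.34e-06 is the smallest that the 853776 arrangements can give. Arntl was chosen by its edgeR p in these same libraries, so the permutation p is no separate support. Arntl also stood at -1.04 for hypoxia over normoxia in the same model, where the hour of collection is likewise not given.

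Nr1d1 (chr11:98767932-98775333, minus strand) had 71.1 to 90.5 CPM (median 74.9) in hypoxia with ABT-263 and 41.6 to 73.7 CPM (median 63.3) in hypoxia with vehicle. It had 69.6 to 122 CPM (median 105) in normoxia with ABT-263 and 49.6 to 72.4 CPM (median 64.7) in normoxia with vehicle. Both pairs of groups overlapped at their edges, for a log2 fold change of 0.54 (SE 0.10, edgeR adjusted p = 0.0153). Nr1d2 (chr14:18204054-18239127, minus strand) had 134 to 230 CPM (median 181) in hypoxia with ABT-263 and 102 to 164 CPM (median 142) in hypoxia with vehicle. In normoxia its 91.1 to 145 CPM (median 125) with ABT-263 lay wholly above its 46.9 to 89.2 CPM (median 80.7) with vehicle. Its log2 fold change was 0.53 (SE 0.11, edgeR adjusted p = 0.0379), a call it kept in 7 of the 24 runs that left out a library.

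Dbp (chr7:45705088-45710203, plus strand) had the largest fold of the called genes. It stood at 58.3 to 81.6 CPM (median 77.7) in hypoxia with ABT-263 and 28.9 to 60.6 CPM (median 51.4) in hypoxia with vehicle. In normoxia it stood at 25.1 to 89.1 CPM (median 56.0) with ABT-263 and 9.57 to 30.3 CPM (median 21.1) with vehicle. Libraries within a group thus spread up to several-fold, and both pairs of groups overlapped slightly. The log2 fold change was 1.03 (SE 0.20, edgeR adjusted p = 0.0250), and the call was lost without normoxia vehicle replicate 1, 3, 4 or 5 (adjusted p up to 0.0662).

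**Figure D3:**
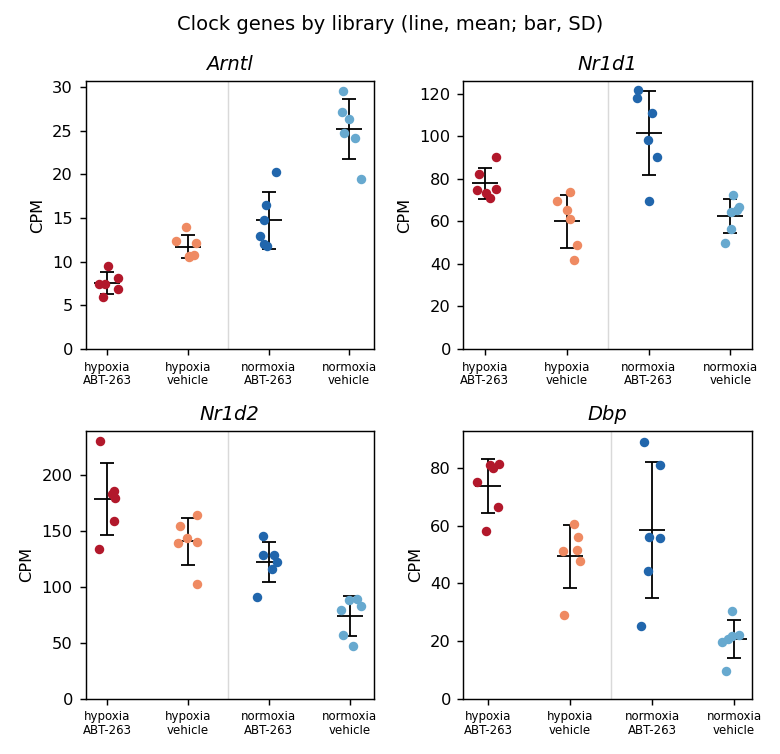
CPM of Arntl, Nr1d1, Nr1d2 and Dbp in each library (points), by group (x axis), with the mean (horizontal line) and SD (bar) of the 6 libraries. Arntl lies lower with ABT-263 at both oxygen levels, and the other 3 lie higher, with the wider separation in normoxia.

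The remaining clock genes did not pass. Of the 6 activators 5 had negative estimates (median -0.11). Npas2, a relative of Clock, stood at -0.74 (edgeR adjusted p = 0.126), Clock itself at -0.13 (adjusted p = 0.818) and Rora at 0.06. Of the 10 repressors 8 had positive estimates (median 0.45), with Per2 at 0.69 (adjusted p = 0.213), Per3 at 0.57 (adjusted p = 0.448) and Cry1 at -0.15 (adjusted p = 0.993). Of the 6 output factors, Tef, a relative of Dbp, stood at 0.50 (adjusted p = 0.0676), the kinase Wee1 at 0.36 (adjusted p = 0.131) and Nfil3, which opposes Dbp at its sites, at -0.40 (adjusted p = 0.218). Per1, which glucocorticoids also induce, stood at 0.67 (adjusted p = 0.769). None of 16 tested glucocorticoid-induced genes, which include Per1, was called, and 4 had an unadjusted p under 0.05, all higher (median 0.21). The share of all genes tested that were higher with such a p was 2.78%. The 3 higher clock calls became 1 to 4 with a library left out, at 1 without normoxia vehicle replicate 1, 3, 4 or 5, and Arntl was called in each of those runs. Without the filter on low counts 1 higher call was left, with those of Nr1d2 and Dbp lost. Without the 4 libraries that correlated least with their groups Arntl and Nr1d2 were called.

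The promoters of Arntl and Nr1d1 are shown because the REV-ERB and ROR receptors act on Arntl and Nr1d1 through response elements near their start sites. The windows are again from RefSeq (GRCm38.p6), chr7:113207215-113207514, plus strand for Arntl, the farther upstream of its 2 windows, and chr11:98775328-98775627, minus strand for Nr1d1. The capitals mark AAAGT, any 2 bases, GT, any base and A, on either strand, a loose form of the element written after these windows had been read.
Arntl: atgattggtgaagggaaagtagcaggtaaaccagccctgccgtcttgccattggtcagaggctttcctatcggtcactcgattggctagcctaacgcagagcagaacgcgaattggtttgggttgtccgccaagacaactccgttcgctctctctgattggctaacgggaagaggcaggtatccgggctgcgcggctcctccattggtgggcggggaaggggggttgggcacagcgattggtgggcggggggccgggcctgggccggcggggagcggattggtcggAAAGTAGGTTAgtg
Nr1d1: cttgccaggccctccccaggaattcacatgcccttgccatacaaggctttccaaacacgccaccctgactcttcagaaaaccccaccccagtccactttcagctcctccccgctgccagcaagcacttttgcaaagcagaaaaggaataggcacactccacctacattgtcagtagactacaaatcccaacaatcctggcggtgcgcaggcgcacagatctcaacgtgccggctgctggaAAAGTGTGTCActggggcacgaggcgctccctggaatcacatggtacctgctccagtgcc
The match began at base 37 in Arntl, counted with the start site as base 1, and 10 bases before the start site in Nr1d1, and 0.873% of all windows held one. Because the loose form was written after reading these windows, that share is no measure of how unusual their matches are. The stricter core AGGTCA was in neither window, was in 2 of the 21, Nr1d2 and Bank1, and was in 16.2% of all windows. The E-box CACGTG and the D-box TTATGTAA, through which the activating complex and Dbp act, were found in 0 of the 21 windows, against 7.17% and 0.931% of all windows, on either strand.

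The other called genes share no list. Tnc, the matrix glycoprotein tenascin-C, had 49.7 to 64.9 CPM (median 52.9) in hypoxia with ABT-263, below the 70.2 to 85.3 CPM (median 75.1) of hypoxia with vehicle. In normoxia it had 10.2 to 17.1 CPM (median 13.5) with ABT-263 and 14.3 to 18.6 CPM (median 17.4) with vehicle. Its log2 fold change for the drug was -0.38 (SE 0.07, edgeR adjusted p = 0.0250), against 2.09 for hypoxia over normoxia. The call was lost when any of 4 libraries was left out, namely replicate 1 of either normoxia group, hypoxia ABT-263 replicate 4 and hypoxia vehicle replicate 3 (adjusted p up to 0.0544). Lif, a cytokine of the IL-6 family, had 4.58 to 8.81 CPM (median 6.11) in hypoxia with ABT-263 and 7.57 to 14.6 CPM (median 11.4) in hypoxia with vehicle. In normoxia it had 1.59 to 5.02 CPM (median 3.55) with ABT-263 and 4.39 to 7.66 CPM (median 4.8) with vehicle, for a log2 fold change of -0.72 (SE 0.15, adjusted p = 0.0492). Lif kept its call in 6 of the 24 runs that left out a library, and lost it with the 1 CPM filter, without robust estimation and with the average of the drug contrasts at the 2 oxygen levels. The MYC-family factor Mycn had 2.56 to 4.45 CPM in hypoxia with ABT-263 and 3.33 to 6.8 CPM in hypoxia with vehicle, and 0.812 to 1.73 CPM in normoxia with ABT-263 and 1.57 to 3.13 CPM in normoxia with vehicle (-0.72, SE 0.15, adjusted p = 0.0379). Mycn kept its call in 9 of the 24 runs and lost it by limma-voom. Tnc, Lif and Mycn were higher in hypoxia than in normoxia in the same model, by 2.09, 0.98 and 1.31, and lower with the drug. Of the 26 called genes, 18 were also called for oxygen. Among those 18, 14 moved in the same direction with hypoxia and with the drug. The other 4, Tnc, Lif, Mycn and Mfsd2b, moved in opposite directions.

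A further 2 genes rose. Wfdc17, a small secreted protein of mouse macrophages, had 28.8 to 42.8 CPM (median 32.2) in hypoxia with ABT-263, above the 20 to 25.5 CPM (median 23.6) of hypoxia with vehicle. In normoxia it had 9.54 to 26.9 CPM (median 12.6) with ABT-263 and 7.94 to 11.3 CPM (median 9.54) with vehicle. The log2 fold change was 0.58 (SE 0.12, edgeR adjusted p = 0.0446), called in 7 of the 24 runs that left out a library. Tex11, known for its part in meiotic recombination in testis, had 5.08 to 8.24 CPM in hypoxia with ABT-263 and 3.84 to 5.56 CPM in hypoxia with vehicle, and 4.11 to 5.19 CPM in normoxia with ABT-263 and 1.9 to 4.13 CPM in normoxia with vehicle (0.60, SE 0.12, adjusted p = 0.0360). Tex11 overlaps 3 gene models on the other strand and kept its call in 9 of the 24 runs.

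The genes of the drug's own targets and of apoptosis did not pass. Bcl2l2, which encodes BCL-W, was nearest, at -0.15 (SE 0.06, edgeR adjusted p = 0.731, unadjusted p = 0.0208). It had 78.0 to 116 CPM in hypoxia with ABT-263 and 96.7 to 118 CPM in hypoxia with vehicle, and 72.7 to 86.8 CPM in normoxia with ABT-263 and 76.7 to 107 CPM in normoxia with vehicle. Bcl2 stood at -0.07 (SE 0.06), Bcl2l1, which encodes BCL-XL, at 0.10 (SE 0.10) and Mcl1, a relative that ABT-263 does not bind well, at 0.06 (SE 0.06), and for each of these 3 the estimate lay within 2 SE of 0. The estimate of Bcl2l1 and that of Mcl1 were slightly negative in hypoxia alone (-0.01 for each). Of 7 anti-apoptotic and 10 pro-apoptotic family members tested none was called, and the medians were -0.05 and -0.0045. Of the BH3-only genes Bbc3 (PUMA) stood at -0.22 (adjusted p = 0.428), Pmaip1 (NOXA) at -0.01 and Bcl2l11 (BIM) at 0.00.

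Genes used to mark senescent cells gave no call either. Cdkn1a, which encodes p21, had a log2 fold change of 0.00 (SE 0.17), made of opposite estimates of -0.27 in hypoxia and 0.27 in normoxia. Cdkn2a, which encodes p16 and ARF, was at most 1.51 CPM in any library, and its log2 fold change was 0.12 (SE 0.28), which was not detectable as a difference at this depth. Of 23 p53 targets and cyclin-dependent kinase inhibitors none passed (median 0.01). The p53 target Plk2 came nearest, at -0.52 (SE 0.11, edgeR adjusted p = 0.0512), and Cdkn2b, which encodes p15, stood at -0.27 (adjusted p = 0.614). Of 18 tested senescence-associated secreted proteins none passed either (median 0.04), with Il6 at -0.09, Il1a at -0.33 and Igfbp5 at -0.45 (adjusted p = 0.938).

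**Figure D4:**
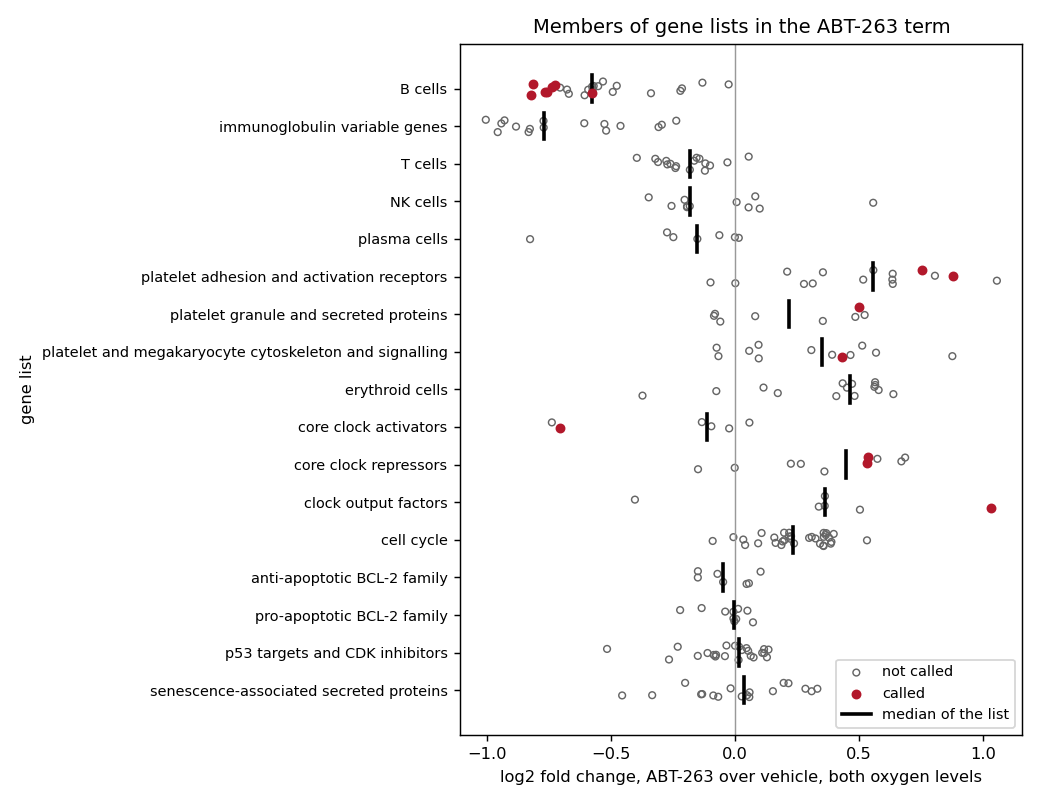
Log2 fold change of ABT-263 over vehicle across both oxygen levels (x axis) for the members of 17 gene lists (y axis), with called members filled, others open, and the median of each list as a bar. B-cell and immunoglobulin variable genes lie to the left of 0 throughout, most platelet and erythroid genes to the right, and the BCL-2 family and senescence lists around 0.

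Of 39 lists of cell types and pathways, 7 held a call and 32 held none, with medians between -0.18 and 0.46 among those 32. Members of a list can vary together, and no list was tested as a set. Of all 16935 genes, 9014 had positive estimates and 2.78% were higher at an unadjusted p under 0.05. Cell-cycle genes had no call but 30 of 32 estimates were positive, with a median of 0.23, and 12 had an unadjusted p under 0.05, all higher. The largest was Cenpf, a kinetochore protein, at 0.53 (edgeR adjusted p = 0.429), and Mki67 stood at 0.36 (adjusted p = 0.871). Cholesterol synthesis genes lay slightly lower, with 21 of 23 estimates negative and a median of -0.13, which was -0.05 in hypoxia and -0.26 in normoxia. Endothelial markers had a median of -0.06, with the VEGF receptor Kdr at -0.24 (adjusted p = 0.138) and Apln at -0.50 (adjusted p = 0.158). Markers of alveolar type 2 cells (11 of 12 negative, median -0.07) and type 1 cells (9 of 10 negative, median -0.08) and of airway cells (12 of 12 positive, median 0.11) and fibroblasts and smooth muscle (12 of 14 positive, median 0.07) held no call. Interferon-stimulated genes were positive for 17 of 18, with a median of 0.20, no call and 1 unadjusted p under 0.05. Their summed transcripts reached 1750 CPM in 1 normoxia ABT-263 library, where the median of its group was 549 CPM. In normoxia with vehicle the sums ran from 567 to 707 CPM (median 619). Adipocyte markers had a median of 1.21 in hypoxia and -0.85 in normoxia, with no call.

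The drug effect was then set out by oxygen level in a fit with 1 mean per group. In normoxia 7 genes were called (0.0413%), 5 of them among the 26, and a fit of the normoxia libraries alone called 0 (1662 at an unadjusted p under 0.05). In hypoxia 0 were called (543 at an unadjusted p under 0.05, lowest adjusted p 0.226), and 0 in a fit of the hypoxia libraries alone (477 at an unadjusted p under 0.05). Of the 26 called over both levels, 21 were called at neither level alone. The difference between the 2 drug effects was called for 0 genes by edgeR, DESeq2 and limma-voom alike, with 625, 654 and 625 genes at an unadjusted p under 0.05, where chance gives 847. The smallest edgeR p of that difference belonged to Shisa2, Mmp3, Htr2a, Hoxa5 and Zfp503, genes that the shared drug term does not call and whose estimates had opposite signs at the 2 levels. Shisa2, for instance, stood at 0.65 in hypoxia and -0.52 in normoxia (unadjusted p of the difference 0.000116, adjusted p = 0.991).

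Within the 26, 16 had the larger estimate in normoxia and 10 in hypoxia. All 11 higher genes were larger in normoxia, most of all Dbp (0.58 in hypoxia and 1.51 in normoxia) and Gp9 (0.52 in hypoxia and 1.25 in normoxia). The difference had an unadjusted p of 0.0124 for Dbp, 0.0187 for Gp9 and 0.0261 for Mfsd2b, the only called genes under 0.05, and none passed after adjustment (edgeR adjusted p = 0.991 for each). Among the lower genes, 5 of 15 had all 6 ABT-263 libraries below all 6 vehicle libraries in hypoxia: Arntl, Hvcn1, Ighd, Fcer2a and Tnc. Such separation was found for 0.106% of all genes tested. In normoxia it was found for Cd79a, Fcmr and Ltb, against 0.278% of all genes. Among the 11 higher genes, Wfdc17 was separated in hypoxia (0.0531% of all genes), and Gp9, Itga2b, Nr1d2, Pf4, Mfsd2b and Mpig6b in normoxia (0.213%). Choosing the 26 on the drug effect in these same libraries favours such separation. No gene of the 16935 was separated at both levels in the same direction.

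The oxygen term of the same model called 9410 genes, or 55.6% of those tested, against 0.154% for the drug. It is given beside the drug term for single genes, since both rest on the same libraries. The B-cell genes Cd79a, Ighd and Fcer2a stood at -0.34, -0.47 and -0.51 for hypoxia over normoxia and at -0.76, -0.81 and -0.73 for the drug. The platelet genes Gp9 and Itga2b stood at 0.38 and -0.12 for hypoxia and at 0.88 and 0.75 for the drug. Nr1d1 stood at -0.22 for hypoxia and 0.54 for the drug, while Nr1d2 stood at 0.74 for hypoxia and 0.53 for the drug.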

How the data were processed

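RNA from whole lung was extracted with an RNeasy Plus kit, made into TruSeq Stranded mRNA libraries and sequenced on an Illumina NextSeq instrument, per the labels' protocols. The values are expected counts per gene that the authors deposited, 1 column per library. Trimmomatic, STAR and RSEM with the GRCm38 build are named in the submitters' processing notes, and versions, the gene annotation and the strand setting are not stated in those notes. RSEM divides reads that map to several genes by probability, so values of near-identical genes are uncertain. Of the deposited values, zeros included, 91.8% were whole, and all were rounded.

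Of 54532 genes, 33616 had a count and 16935 passed edgeR's filter (minimum count of 10 over the 4 groups). The model held oxygen and drug, with TMM scaling and the robust quasi-likelihood F test (edgeR 4.0.16 in R 4.3.3, 21 residual degrees of freedom), and p-values were adjusted by the Benjamini-Hochberg method over all 16935 genes at 0.05. The SE of a log2 fold change was its size over the square root of F. Effects by oxygen level and their difference (the interaction) came from a fit with 1 mean per group. Single values were tested by exact two-sided permutation of drug labels within oxygen level. The fit was tested on simulated data. Alternatives were RLE scaling, other filters, DESeq2 1.42.0, limma-voom (limma 3.58.1), other designs and samples, and each library left out. Library pairs of a group differed by more than sampling noise (lowest chi-square per degree of freedom 6.97), so all 24 were kept.

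The genes named are the called genes, the leading members of the lists with most calls, the drug's targets, Cdkn1a, Cdkn2a and the 5 smallest p-values of the drug term and of the interaction. Other list members are quoted with their list. The drug term, the gene lists and these rules were chosen with earlier results of these data known. Coordinates and overlaps are from GENCODE vM21 (GRCm38), and promoter windows from RefSeq (GRCm38.p6), which held 21 of the 26 called genes and none of Hvcn1, Cxcr5, Ighd, Tex11 and Cd79b.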

Additional observations from a re-analysis of the deposited data

Results flagged for a closer look

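A library was set apart when its gap to the nearest of the other 5 in its group exceeded Dixon's 95% critical share of the range of the group. This held for 11 of 216 groups of values tested, and chance flags about 1 in 20.

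Hypoxia ABT-263 replicate 1 stood apart for 4 genes. Its Ighd was 13.8 CPM where the other 5 lay between 33.6 and 39.0, and its Fcer2a was 4.51 CPM where they lay between 7.83 and 9.79. Its Bcl2l1 was 157 CPM, against 95.8 to 117 in the others, and its Cdkn1a was 104 CPM, against 41.4 to 62.7. Ighd and Fcer2a kept their calls without this library.

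Hypoxia ABT-263 replicate 4 was high for H2-Oa, at 6.15 CPM where the others had 3.16 to 3.94, and for Ly6g6f, at 2.23 CPM where the others had 0.652 to 1.16. In hypoxia ABT-263 replicate 2 24200 genes were detected, against 22700 to 23300 in the rest of its group. Hypoxia vehicle replicate 6 had 40.1 CPM of Cd79a, the others 20.8 to 26.4. Gimap6 was low in hypoxia vehicle replicate 2, at 109 CPM beside 135 to 149. Bcl2 was high in hypoxia vehicle replicate 5, at 25.4 CPM beside 19.6 to 21.5. Wfdc17 reached 26.9 CPM in normoxia ABT-263 replicate 5, where the other 5 had 9.54 to 14.4.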

How the results depend on the processing

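The 26 calls (11 higher, 15 lower) were 25 to 29 with RLE scaling, a mean of 1 CPM or more, limma-voom, no robust estimation or the average of the 2 drug contrasts. Of the 26, limma-voom missed P2rx1, Itga2b, Mycn and Mpig6b, the average missed Lif and Wfdc17, and the 1 CPM filter and the fit without robust estimation missed Lif. The calls were 15 (2 higher, 13 lower) without the filter on low counts, 77 (31 higher, 46 lower) by DESeq2, which called all 26, and 93 (29 higher, 64 lower) with the leading residual component as a covariate. Without the 4 libraries that correlated least with their groups they were 4 (1 higher, 3 lower). None was called without the oxygen term (edgeR, 3.11% at an unadjusted p under 0.05), in normoxia libraries only (9.81%) or in hypoxia libraries only (2.82%), for 0 higher and 0 lower. The cause was not tested. With a library left out, 11 to 37 were called, 2 to 13 higher and 9 to 26 lower, and the interaction stayed at 0. In the same runs the difference in total counts lay between -765000 and -273000, in haemoglobin share between 0.14 and 0.309 points, in mitochondrial share between 0.12 and 0.422 points and in genes detected between -247 and -32.6. No paired analysis was possible because the labels give no number, animal or day that ties a library of one group to one of another.

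No called gene changed sign under any alternative. In hypoxia libraries only the mitochondrially encoded share of counts turned to -0.331 points, and the log2 fold changes were 0.191 for Mmp3, 0.193 for Zfp503, 0.391 for Htr2a, 0.217 for Hoxa5, -0.008 for Bcl2l1, -0.016 for Mcl1, -0.208 for Cdkn2a and -0.270 for Cdkn1a, all opposite to the value over both levels. Shisa2 was -0.514 in normoxia libraries only, Htr2a 0.042 without the oxygen term and Bcl2l1 -0.007 without the 4 libraries. Cdkn1a, near 0, was -0.004 without the filter, -0.002 with the 1 CPM filter, -0.073 by limma-voom, -0.017 without the oxygen term, -0.040 with the residual component, -0.217 without the 4 libraries and -0.072 on the scale of the permutation test. With a library left out, Cdkn1a ran from -0.098 to 0.057, Cdkn2a from -0.029 to 0.211 and Hoxa5 from -0.053 to 0.014. At this depth and with 21 residual degrees of freedom, no gene with a change under 1.25-fold was called.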
